A study of Mus musculus with 4 samples.

Results

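Antimicrobial and acute phase genes were described in colon monocytes and macrophages of mice gavaged with DEP, particles from diesel exhaust, or with buffered saline (PBS). The 7 members were Saa3, Hp, Lcn2, Lyz1, Lyz2, Pglyrp1 and Slpi, 7 of the 28692 genes in the table, grouped for their function. Saa3 and Hp were chosen by their measured values, since their difference between cell classes had differed between the exposures, and their levels by class and by exposure are therefore given as a description, with no test. Groups were 2 male C57/Bl6N mice (DEP 11 and DEP 13) given 12 µg of DEP in 200 µL of PBS, and 2 (PBS 2 and PBS 3) given PBS alone, on 5 days a week for about 6 months; age was not given in the sources used here. Lamina propria cells (the connective tissue under the gut epithelium) were sorted as CD11b+ cells that were also Ly6C+ or CD64+, and each mouse filled 1 well of a droplet system that sequences transcripts from their 3′ end and counts molecules by unique molecular identifiers (UMIs).

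These genes encode secreted proteins of innate defence. Serum amyloid A and haptoglobin are acute phase proteins, whose release rises in inflammation: Saa3 is the serum amyloid A made outside the liver, and haptoglobin (Hp) binds free haemoglobin. Lipocalin 2 (Lcn2) takes up bacterial siderophores and so withholds iron, the lysozymes Lyz1 and Lyz2 cut bacterial cell walls, Pglyrp1 binds peptidoglycan, and Slpi inhibits neutrophil elastase and related proteases. In the gut, monocytes arrive with the surface protein Ly6C and lose it as they turn into resident macrophages, which make the complement component C1q in large amounts. Lyz2 is a general gene of myeloid cells, Lyz1 is best known from Paneth cells of the small intestine, and Lcn2, Hp and Pglyrp1 are also stored in neutrophil granules.

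Each member is a protein-coding gene (coordinates in mm10). Saa3 lies at chr7:46711998-46715700 on the minus strand and Hp at chr8:109575128-109579172 on the minus strand. Lcn2 lies at chr2:32384633-32388252 (minus), Pglyrp1 at chr7:18871331-18890459 (plus) and Slpi at chr2:164354070-164389095 (minus). Lyz2 (chr10:117277331-117282321, minus) and Lyz1 (chr10:117287797-117292868, minus) are neighbours. RefSeq (GRCm38.p6) gave a promoter for 6 of the 7 members. The 250 bases before the RefSeq start are shown for Saa3 and Lcn2, which are compared within the same cells, and for the lysozyme pair. RefSeq starts differ from the ends of some spans above. The windows of Lcn2, Pglyrp1 and Slpi lay wholly inside these spans, those of Saa3 and Lyz2 partly, and that of Lyz1 outside. Capitals mark matches, on either strand, to an NF-kB-type motif (GGG and TCC with any 4 bases between them) or to a C/EBP-type motif (TTGCNNAA), and each sequence runs 5′ to 3′ along its gene.
Saa3 (chr7:46715677-46715926): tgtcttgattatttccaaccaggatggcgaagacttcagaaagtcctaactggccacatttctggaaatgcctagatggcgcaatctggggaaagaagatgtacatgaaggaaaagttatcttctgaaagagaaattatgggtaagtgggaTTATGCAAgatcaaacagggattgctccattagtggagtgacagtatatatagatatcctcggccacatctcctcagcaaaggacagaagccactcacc
Lcn2 (chr2:32387740-32387989): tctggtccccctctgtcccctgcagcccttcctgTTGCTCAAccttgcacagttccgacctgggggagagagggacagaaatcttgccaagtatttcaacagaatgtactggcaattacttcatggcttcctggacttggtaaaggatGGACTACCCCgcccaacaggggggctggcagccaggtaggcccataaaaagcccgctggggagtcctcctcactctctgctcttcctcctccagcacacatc
Lyz1 (chr10:117292869-117293118): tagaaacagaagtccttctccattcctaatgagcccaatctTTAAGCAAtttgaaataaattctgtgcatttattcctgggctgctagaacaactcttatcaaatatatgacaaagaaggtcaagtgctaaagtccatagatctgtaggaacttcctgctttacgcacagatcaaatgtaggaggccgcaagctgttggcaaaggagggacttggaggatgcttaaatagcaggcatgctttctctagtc
Lyz2 (chr10:117282273-117282522): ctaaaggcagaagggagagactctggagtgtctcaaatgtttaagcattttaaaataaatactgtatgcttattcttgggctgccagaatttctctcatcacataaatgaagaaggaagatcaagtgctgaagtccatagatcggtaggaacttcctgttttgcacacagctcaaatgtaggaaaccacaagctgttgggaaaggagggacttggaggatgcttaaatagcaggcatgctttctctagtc
A C/EBP-type match stood 99 bases before the start of Saa3, 216 before Lcn2, 209 before Lyz1 and 241 before Slpi, while 9.57% of 32817 promoters of this length held such a match. An NF-kB-type match stood 102 bases before the start of Lcn2 and 93 before Pglyrp1, against 16.5% of all promoters. The search also covered TTCNNNGAA (STAT type, 7.01% of promoters) and TATAAA (12.4%), which had 0 matches in these 6 windows. The Lyz1 and Lyz2 promoters were identical at 200 of 248 aligned bases, and at 50 of the 50 bases next to the RefSeq start. For Lyz2 these 50 bases lay almost wholly inside its gene span.

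Of 6954 barcodes, 4771 held at least 1000 UMIs and were taken as cells: 1218 and 675 in DEP 11 and DEP 13, and 1296 and 1582 in PBS 2 and PBS 3. Median UMIs per cell were 5328.5, 5794, 7115.5 and 5367.5, so PBS 2 was the deepest library. Cells were placed by Ly6c2 (high at 2 or more UMIs per 10000 of the cell) and C1qa (high at 5 or more per 10000). This gave 25 to 76 Ly6c2-high C1qa-low cells per mouse, 494 to 1130 Ly6c2-low C1qa-high cells, 89 to 339 with both high and 17 to 79 with both low. Of the other monocyte markers, 9 of 9 were higher in the Ly6c2-high C1qa-low cells of all 4 mice, and 10 of 11 macrophage markers were higher in the Ly6c2-low C1qa-high cells of all 4. C1qa also reached 11.3 to 18.4 per 10000 in barcodes with fewer than 500 UMIs, above the threshold of 5, and the part of RNA from outside cells in the C1qa of single cells was not tested. A threshold of 16 per 10000, chosen after seeing the data, gave 116 to 266 Ly6c2-high C1qa-low cells per mouse, and the class differences of the members are given under both. Lymphoid-marker cells (at least 3 lymphoid genes detected and at least 10 of their UMIs per 10000) numbered 53, 58, 43 and 174 in DEP 11, DEP 13, PBS 2 and PBS 3. Neutrophil markers summed to 51.5 to 64.8 CPM (UMIs per 1000000) per mouse with 7 to 9 of 12 listed genes detected. Of the 12, Csf3r (1038 UMIs in 890 cells), Cd177 (504 in 347), Mmp8 (209 in 169) and Mmp9 (86 in 50) held most of these UMIs, S100a8 had 11, Ly6g, Ltf, Cxcr2 and Retnlg had 2 to 5 each, and S100a9, Ngp and Camp had 0.

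**Figure D1:**
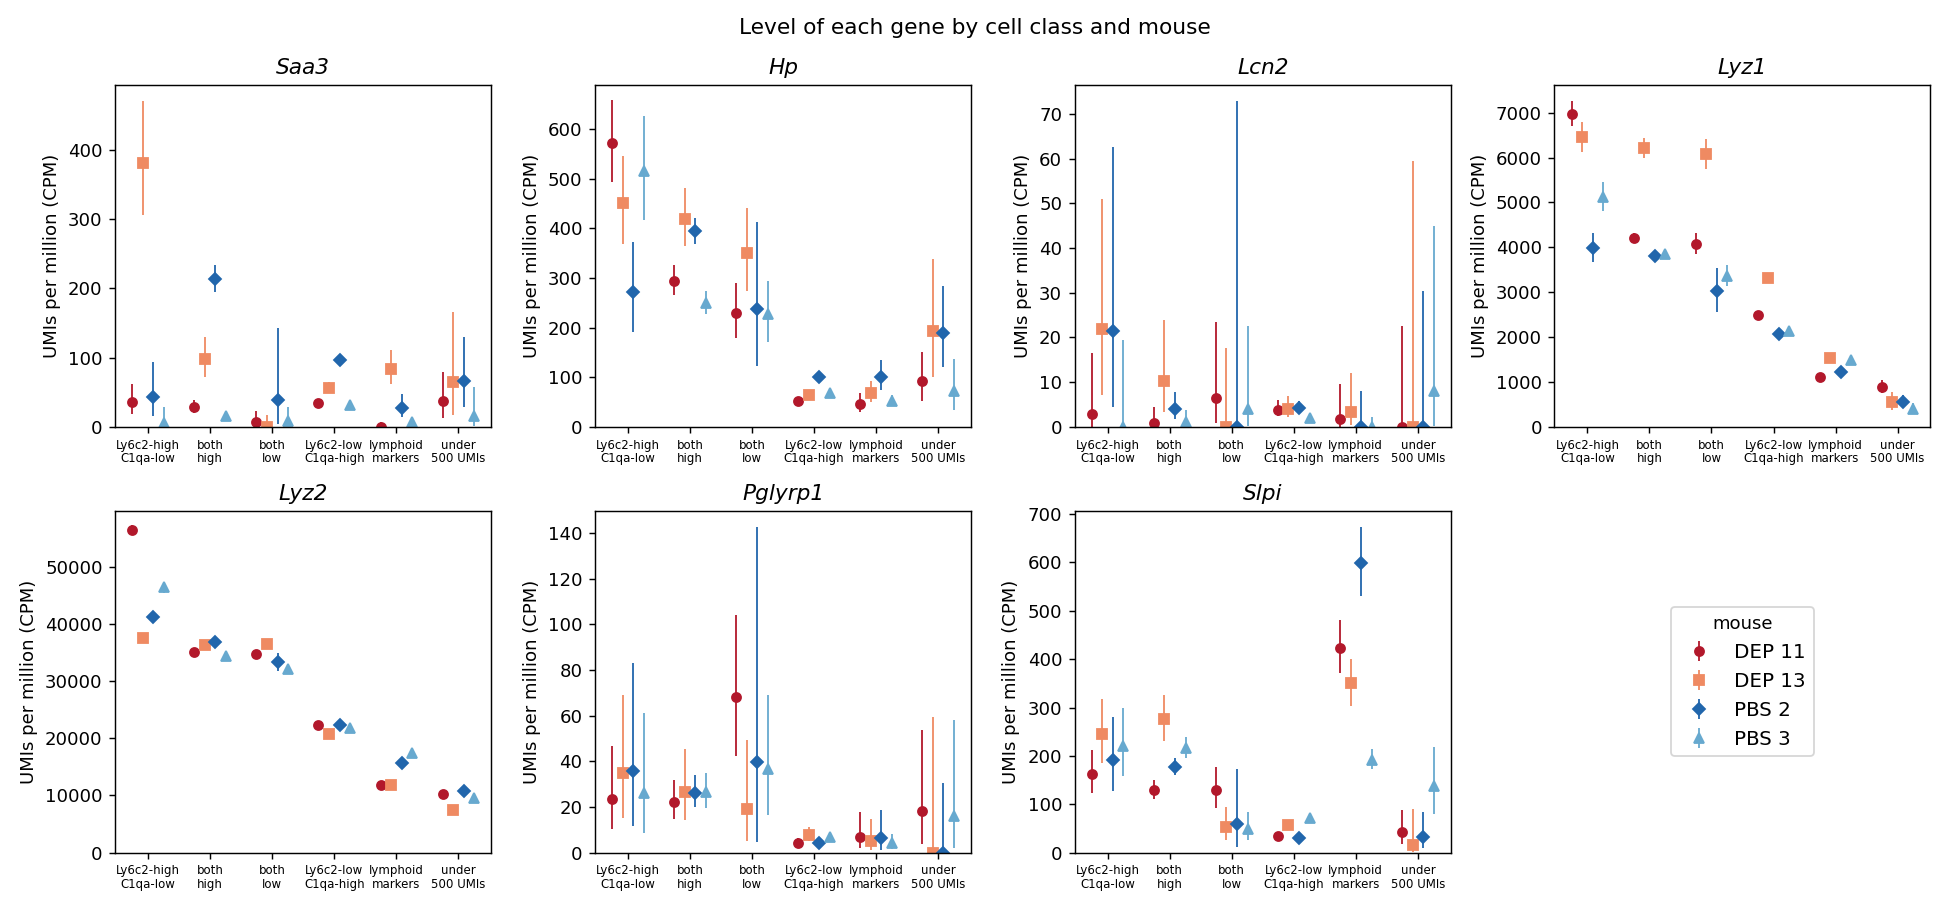
CPM of each gene (y axis, from 0) by cell class (x axis) in the 4 mice, with exact 95% Poisson intervals that cover counting error only. Hp, Lyz1, Lyz2 and Pglyrp1 sat higher in Ly6c2-high C1qa-low than in Ly6c2-low C1qa-high cells of every mouse, Slpi was highest in lymphoid-marker cells except in PBS 3, and Saa3 differed most in DEP 13.

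Saa3 came from very few cells. In all 4771 cells it had 2048 UMIs in 431 cells, of which 343 cells held 1 UMI and 33 cells held at least 5. These 33 cells carried 77.2% of the Saa3 UMIs, and 9 cells carried 50% of them. Summed over all cells, Saa3 stood at 31.8 and 75.3 CPM in DEP 11 and DEP 13, and 122 and 27.2 in PBS 2 and PBS 3. PBS 2 was highest and the exposures overlapped. Barcodes under 500 UMIs had 36.6, 64.5, 65.7 and 16.1 CPM in the same order of mice. Leaving out the top cell of each mouse gave 20.2, 56.6, 99.2 and 11.2 CPM. In PBS 3 that 1 cell, with 155 Saa3 UMIs, held 58.9% of the total.

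The share of cells with a Saa3 UMI was 3.61% and 8.15% in DEP 11 and DEP 13, and 21.4% and 3.48% in PBS 2 and PBS 3. Lymphoid-marker cells reached 0% (0 of 53 cells, with an exact binomial upper limit of 6.72%), 12.1%, 23.3% and 6.90%. Their median depths were 7304 to 8618 UMIs against 5218 to 7098 in the other cells. Those with Jchain (the joining chain of secreted antibodies) under 100 UMIs per 10000 numbered 32, 41, 34 and 142. They held Lyz2 at 17974, 15502, 22092 and 22115 CPM, against 20668 to 22342 in Ly6c2-low C1qa-high cells. Lymphoid-marker cells are thus no background free of myeloid RNA, and whether they make Saa3 was not tested. In DEP 13, 44 of the 50 Saa3 UMIs of lymphoid-marker cells were in 1 cell, which is 1 of the 33 above. Thinned to 1000 UMIs per cell, the shares were 1.31%, 2.07%, 5.32% and 0.822% over all cells, and 0%, 5.17%, 4.65% and 1.15% in lymphoid-marker cells. The latter were the higher in DEP 13 and PBS 3 and the lower in DEP 11 and PBS 2, from 0 to 3 cells with a UMI per mouse, and no difference between mice was read from the share of cells. In PBS 2 the classes had similar shares, at 20% of Ly6c2-high C1qa-low and 22.0% of Ly6c2-low C1qa-high cells.

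**Figure D2:**
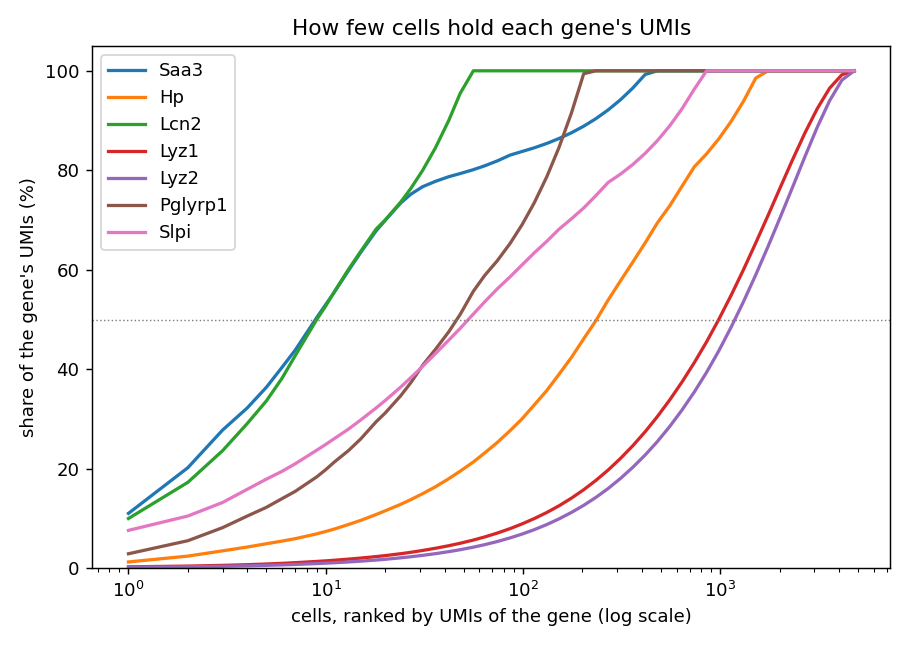
Share of each gene's UMIs (y axis, %) held by its top cells, with all 4771 cells ranked by UMIs of that gene (x axis, log scale). The dotted line marks 50%, which Saa3 and Lcn2 reached at 9 cells, Pglyrp1 at 47, Slpi at 53 and Hp at 236.

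The cells with at least 5 Saa3 UMIs were then compared with all others in the same mouse, as a description of a few cells. There were 7 and 6 in DEP 11 and DEP 13, and 17 and 3 in PBS 2 and PBS 3. Lcn2 stood at 382, 132, 54.1 and 230.0 CPM in them, against 1.65, 4.17, 3.63 and 1.35 CPM in the other cells. They held 31 of the 110 Lcn2 UMIs in the data, or 28.2%, in 8 cells, of which 3 were in DEP 11, 3 in PBS 2 and 1 in each of DEP 13 and PBS 3. In 1 cell of each mouse lay 11 of 13, 6 of 6, 4 of 8 and 4 of 4 of these UMIs, and without it, an alternative chosen after seeing the data, Lcn2 stood at 82.4, 0, 27.8 and 0 CPM. Hp stood at 559, 286, 1183 and 633 CPM in them against 124, 137, 153 and 115, and at 330, 194, 869 and 71.9 CPM without the cell richest in Hp of each mouse, which put PBS 3 below its other cells. Lyz2 went the other way in DEP 11 (19440 against 26681 CPM) and DEP 13 (11580 against 24184), and was higher in PBS 2 and PBS 3. Clec4e, a lectin receptor for damaged cells and mycobacteria, reached 265, 264, 304 and 690.1 CPM in the Saa3-rich cells (9, 12, 45 and 12 UMIs). This compared with 52.2 to 83.1 CPM elsewhere, and fell to 168, 80.7, 224 and 216 CPM without the cell richest in Clec4e. Of all cells with a Saa3 UMI, 18.2%, 18.2%, 32.5% and 23.6% held Clec4e, against 15.6%, 15.97%, 27.9% and 18.5% of other cells. Il1b was higher in the Saa3-rich cells except in PBS 3 (2070 against 2179 CPM). Lyz1 was lower there except in PBS 2, Slpi except in PBS 3, and C1qa in every mouse. The monocyte marker Ccr2, Ly6c2, Csf3r and Pglyrp1 went both ways. By class, 19 of the 33 were Ly6c2-low C1qa-high, 11 had both genes high and 3 were Ly6c2-high C1qa-low.

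Along C1qa, the Saa3 level of a bin depended on single cells. At 40 to 80 C1qa UMIs per 10000, Saa3 stood at 5.18 and 11.5 CPM in DEP 11 and DEP 13, and 39.0 and 5.64 in PBS 2 and PBS 3. At 20 to 40 per 10000 the values were 129.5, 101, 329 and 7.30 CPM, and at 10 to 20 they were 46.0, 383, 186 and 103. The highest bin was 20 to 40 in DEP 11 and PBS 2, and 10 to 20 in DEP 13 and PBS 3. In DEP 11, 85 of the 104 UMIs of that bin were in 1 cell, in DEP 13 70 of 117, in PBS 2 226 of 437 and in PBS 3 155 of 185. Without the cell richest in Saa3 of each mouse, an alternative chosen after seeing the data, the highest bin was 5 to 10 in DEP 11, PBS 2 and PBS 3 (270.1 CPM in PBS 2 and 30.8 in PBS 3), and 54 of 59, 188 of 261 and 31 of 37 UMIs of those bins were again in 1 cell. In DEP 13 the richest cell lay below 5 (82 of 87 UMIs; 199 CPM with it and 11.7 without), and 10 to 20 stayed highest. Without all cells of at least 5 Saa3 UMIs, no bin of DEP 11 or PBS 3 exceeded 7.40 CPM, those of DEP 13 reached up to 29.0 CPM (20 to 40), and those of PBS 2 lay at 25.9 to 46.1 CPM.

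By the first thresholds, Saa3 in Ly6c2-high C1qa-low cells was 35.5 CPM (12 UMIs) and 381 CPM (87 UMIs) in DEP 11 and DEP 13, and 42.8 CPM (6 UMIs) and 5.25 CPM (1 UMI) in PBS 2 and PBS 3. In Ly6c2-low C1qa-high cells it was 33.9, 56.3, 97.2 and 31.4 CPM. The first class stood above the second in both DEP mice and below it in both PBS mice, which is the pattern that chose the gene. In DEP 13, 82 of the 87 UMIs came from 1 cell, and 22.7 CPM remained without it. With the C1qa threshold of 16, Ly6c2-high C1qa-low cells had 40.5, 209, 223 and 17.8 CPM against 28.1, 33.3, 87.8 and 6.00, higher in 4 of 4 mice. The class by exposure difference, with no test, was 3.35 (log2) by the first thresholds and 0.41 with the threshold of 16. Averaged over the exposures, the class difference, also with no test, was 0.92, and it was -0.77 without DEP 13, 1.5 without PBS 2 and 1.55 with the C1qa threshold of 16.

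Hp marked the C1qa-low end of the cells. It had 4340 UMIs in 1576 cells. In Ly6c2-high C1qa-low cells Hp stood at 571 and 451 CPM in DEP 11 and DEP 13, and 271 and 515 in PBS 2 and PBS 3. In Ly6c2-low C1qa-high cells it stood at 52.6, 65.0, 100.5 and 68.6 CPM. Barcodes under 500 UMIs had 72.5 to 194 CPM of Hp and lymphoid-marker cells 46.9 to 101. The level of Ly6c2-low C1qa-high cells thus lay within or below that of such barcodes, and the part of outside RNA in it was not tested. The 2 classes did not overlap, and Hp was 10.9-, 6.94-, 2.69- and 7.50-fold higher in the Ly6c2-high C1qa-low cells. Within each of the 4 mice this class was the higher for 15.5% of genes. The fitted class difference, with no test, was 2.68 (log2), and 3.24 with the C1qa threshold of 16. Of 6609 genes tested, 1068 (16.2%) were called in either direction and 536 (8.11%) higher in the Ly6c2-high C1qa-low cells (19.0% with the threshold of 16). Of the 5 members not chosen by their values, Lyz1, Lyz2 and Slpi were called higher, also with the threshold of 16. Lcn2 and Pglyrp1 did not reach a UMI in 5% of cells and were left out of that test.

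Hp was lower in each higher C1qa bin of DEP 11 and PBS 3. In DEP 11 it was 408 CPM below 5 C1qa UMIs per 10000, 286 at 5 to 10, 240 at 10 to 20, 56.0 at 20 to 40, 28.0 at 40 to 80 and 22.2 at 80 or more. PBS 3 went from 352 to 31.4 CPM. DEP 13 had 403 CPM below 5 and 396 at 10 to 20, and PBS 2 had most at 5 to 10, with 507 CPM. PBS 2 still had 216 CPM at 20 to 40, where the other mice had 52.5 to 66.4.

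By exposure, Hp overlapped over all cells (126 and 139 CPM with DEP, 168 and 116 with PBS). Among Ly6c2-low C1qa-high cells both DEP mice were below both PBS mice, as were 14.6% of genes tested there, with 58.8 ± 8.8 CPM (SD, n = 2) against 84.6 ± 22.6 (SD, n = 2). With the C1qa threshold of 16 the groups overlapped there, at 29.7 and 52.5 CPM with DEP against 74.0 and 41.3 with PBS. Among Ly6c2-high C1qa-low cells, where 13.7% of genes were lower in both DEP mice, the groups overlapped. The class by exposure difference of Hp was 0.86 (log2), and 0.68 with the threshold of 16. The first chose the gene, and neither carries a test.

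**Figure D3:**
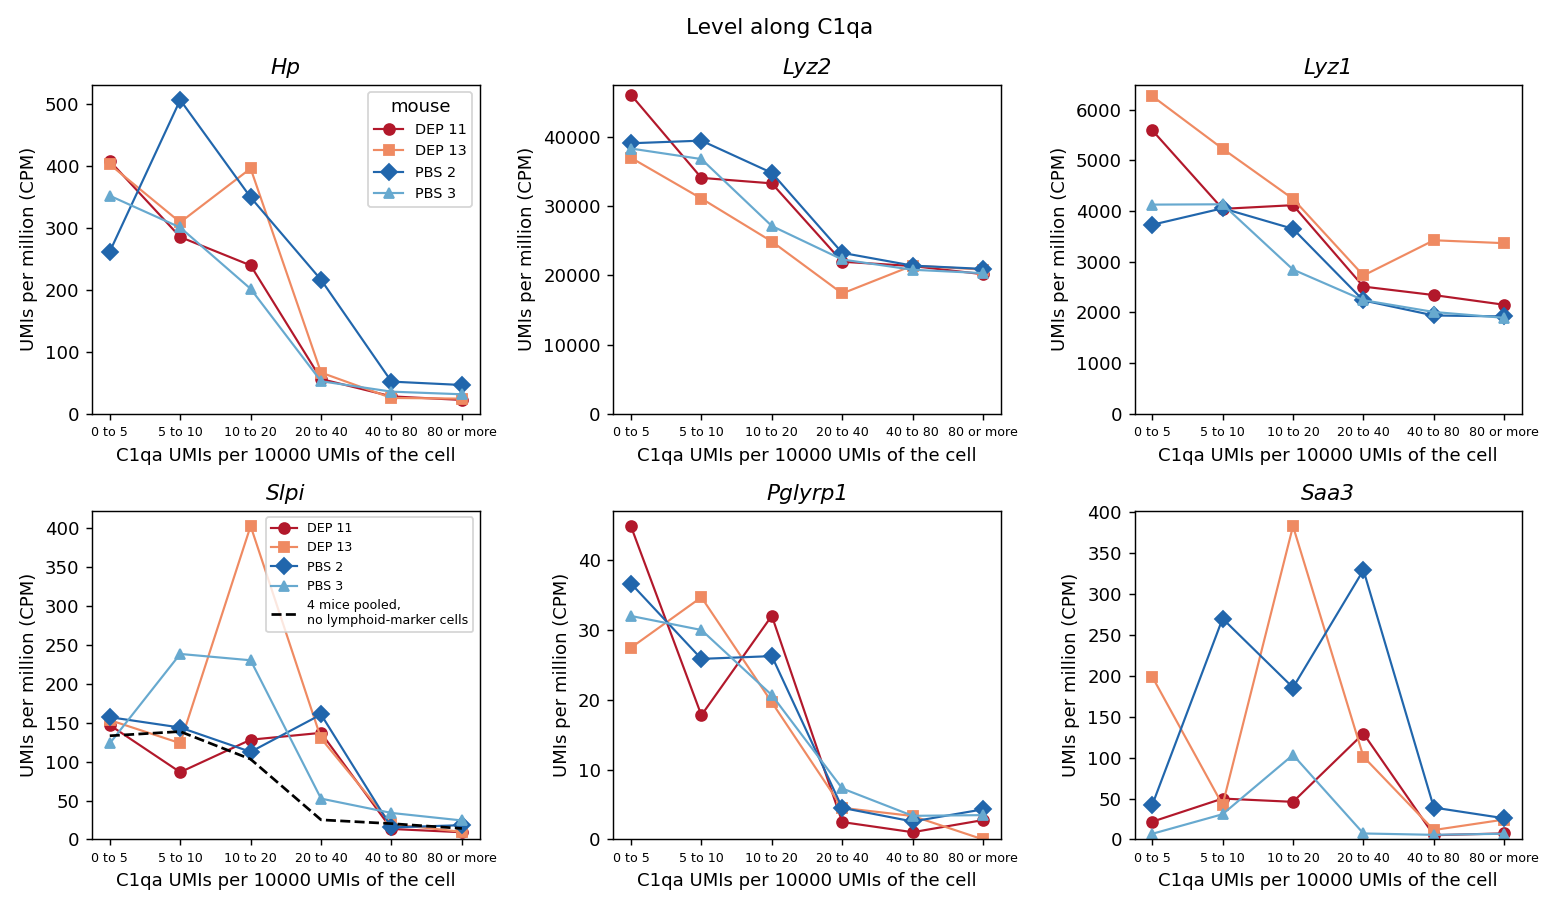
CPM (y axis, from 0) in cells binned by C1qa UMIs per 10000 (x axis), 1 line per mouse; the dashed line for Slpi pools the 4 mice without lymphoid-marker cells. Hp and Pglyrp1 dropped between 10 to 20 and 20 to 40, Lyz2 levelled off at 20161 to 21412 CPM from 40 upwards, and the peaks of Saa3 at 10 to 40 held 1 cell each with 70 to 226 UMIs.

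Lyz2 was found in 100% of cells. It was the most even of the members: 1186 cells were needed to hold 50% of its UMIs. Ly6c2-high C1qa-low cells held 56476 and 37456 CPM in DEP 11 and DEP 13, and 41193 and 46391 in PBS 2 and PBS 3. Ly6c2-low C1qa-high cells held 22342, 20668, 22295 and 21788 CPM. The latter values lay close together, and the classes did not overlap. Within each of the 4 mice the first class was the higher, as it was for 15.5% of genes. The class difference was 0.996 ± 0.053 (log2, SE, adjusted p = 7.73e-13, edgeR quasi-likelihood test), and 1.03 with the C1qa threshold of 16. Over all cells Lyz2 was 25350 ± 1835 CPM with DEP and 25393 ± 585 with PBS (SD, n = 2 each). The difference of 0.00 ± 0.12 was not called (adjusted p = 0.999), and neither were those within the classes. Lymphoid-marker cells still had 11745 to 17388 CPM of Lyz2 and barcodes under 500 UMIs 7502 to 10852.

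Lyz1 ran with Lyz2 over cells: Spearman's rho of their shares of a cell's UMIs was 0.92 to 0.95 in the 4 mice. The other pairs of members were at or below 0.34. Their transcripts were identical at 96.0% of 1262 aligned bases and at 97.4% of 495 aligned bases in the last 500, and 16.9% of the 50-base stretches of Lyz1 in that part occurred in Lyz2. Counts may therefore be uncertain where reads fit both genes. In Ly6c2-high C1qa-low cells Lyz1 stood at 6982 and 6451 CPM in DEP 11 and DEP 13, and 3986 and 5115 in PBS 2 and PBS 3. In Ly6c2-low C1qa-high cells it stood at 2497, 3311, 2073 and 2136 CPM. The class difference was 1.12 ± 0.08 (log2, SE; adjusted p = 1.03e-10, edgeR quasi-likelihood test), and 1.19 with the C1qa threshold of 16.

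Lyz1 was higher in both DEP mice than in both PBS mice in each of the 4 classes by the first thresholds, as were 0.424% of 6609 genes. The classes come from the same 4 libraries. With the C1qa threshold of 16 this held in 3 of 4 (at least 3 for 2.95% of genes), and cells with both genes high overlapped, at 3069 CPM in DEP 11 and 2604 in DEP 13 (15 cells) against 2929 in PBS 2 and 2872 in PBS 3. Over all cells it was 3068 CPM in DEP 11 and 3934 in DEP 13, against 2486 in PBS 2 and 2556 in PBS 3. The 2 PBS mice nearly coincided and the DEP mice differed from each other. The difference of 0.48 ± 0.18 (log2, SE) was not called (unadjusted p = 0.0294, adjusted p = 0.997, edgeR quasi-likelihood test), and was 0.24 without DEP 13, 0.68 without DEP 11 and 0.50 without lymphoid-marker cells. Ly6c2-high C1qa-low cells made up 6.24% and 6.22% of cells with DEP and 1.93% and 2.97% with PBS (16.7% to 17.9% in all mice with the C1qa threshold of 16), and their part in the sums over all cells was not tested. In all, 0 of 6609 genes were called (0%) over all cells by edgeR's quasi-likelihood test, 171 had an unadjusted p under 0.05, DESeq2 called 4 and edgeR's likelihood ratio test called 8. Of the same genes, 13.8% had CPM higher in both DEP mice than in both PBS mice and 12.8% lower. Within classes Lyz1 differed by 0.58 ± 0.23 in Ly6c2-high C1qa-low cells (adjusted p = 0.997, edgeR quasi-likelihood test; 3 of 5464 genes called, 0.0549%) and by 0.48 ± 0.18 in Ly6c2-low C1qa-high cells, where it was not called. CPM was higher in both DEP mice for 17.9% of genes in the former class and 14.0% in the latter. In the latter 0 of 6845 genes were called (0%), with 221 at an unadjusted p under 0.05, 7 called by DESeq2 and 12 by the likelihood ratio test. The class by exposure difference of Lyz1 was 0.11 ± 0.16 (adjusted p = 1; 12 of 6609 genes called, 0.182%).

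The share of Lyz1 among the UMIs of both lysozymes needs no scaling between libraries. It also depends on Lyz2 and on where reads that fit both genes were counted. It was 10.3% and 14.1% in DEP 11 and DEP 13, and 8.79% and 9.28% in PBS 2 and PBS 3. In Ly6c2-high C1qa-low cells the shares were 11%, 14.7%, 8.82% and 9.93%. In Ly6c2-low C1qa-high cells they were 10.1%, 13.8%, 8.51% and 8.93%. Lymphoid-marker cells gave 8.72%, 11.5%, 7.24% and 7.90%, and barcodes under 500 UMIs gave 7.99%, 6.81%, 4.90% and 3.97%. Both DEP mice were above both PBS mice in each of these sets, including barcodes under 500 UMIs. The sets come from the same 4 libraries and are not separate support. How often other gene pairs separate the groups in this way was not tested. The order of the 4 mice was the same in all sets but the last. Along C1qa and along Ly6c2, Lyz1 CPM was higher in both DEP mice in 5 of 6 bins each, and 0.878% and 0.635% of 6609 genes were so in at least 5. Of the other members, none was higher, and none lower, in both DEP mice in more than 2 bins of either gene. The share of all genes with that many bins was not measured.

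**Figure D4:**
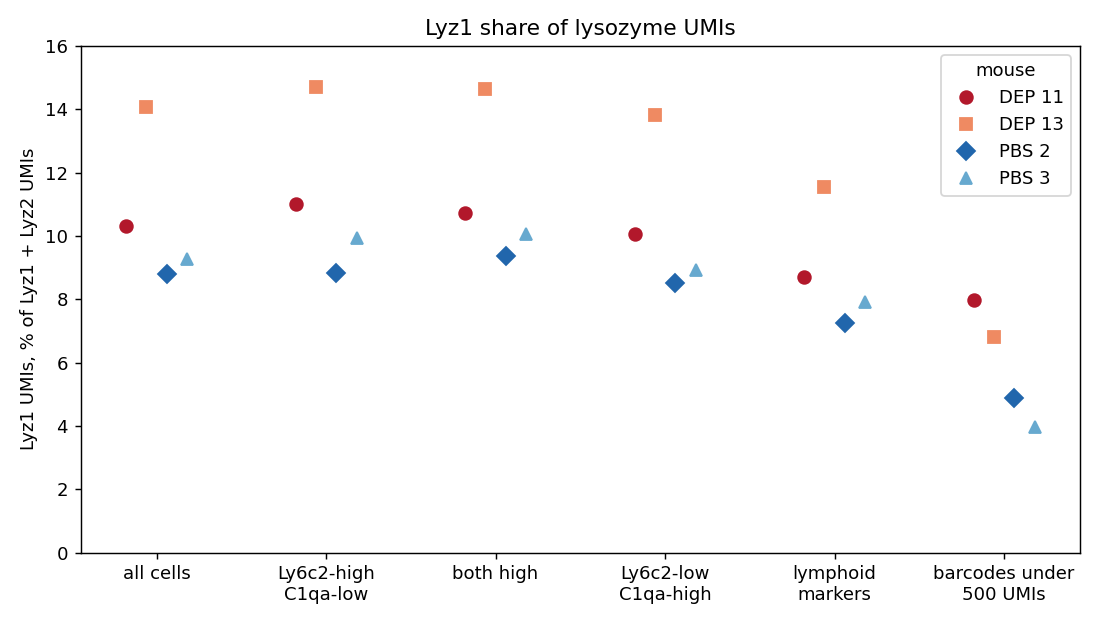
Lyz1 UMIs as a percentage of Lyz1 plus Lyz2 UMIs (y axis, from 0) in 6 sets of barcodes (x axis), 1 point per mouse. DEP 13 was highest in the 5 sets of cells and both DEP mice stood above both PBS mice in all 6 sets.

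After thinning each cell to 1000 UMIs, a Lyz1 UMI was found in 82.8% and 83.3% of cells with DEP and in 79.1% and 79.0% with PBS (exact two-sided permutation test, p = 0.333, the smallest that 2 against 2 mice allow). Of 6609 genes, 14.1% had a thinned share higher in both DEP mice than in both PBS mice. Before thinning the shares were 95.6%, 94.5%, 96.1% and 95.7%. Lymphoid-marker cells reached 46.5% to 62.6% after thinning.

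Slpi had 2495 UMIs in 830 cells, from 2 kinds of cell. Lymphoid-marker cells held 42.7% of them while holding 10.7% of all UMIs. Within these, cells with Jchain (the joining chain of secreted antibodies) at 100 or more UMIs per 10000 numbered 21, 17, 9 and 32 in DEP 11, DEP 13, PBS 2 and PBS 3, and had 628, 551, 1212 and 424 CPM of Slpi. In PBS 2, 1 cell held 190 of the 273 Slpi UMIs of these cells, and without the richest cell of each mouse, also chosen after seeing the data, the values were 471, 404, 445 and 360 CPM. The other lymphoid-marker cells had 10.5, 34.4, 24.9 and 40.2 CPM. A Slpi UMI was found in 82.4% to 95.2% of the Jchain-rich cells and in 6.25% to 22.5% of the others, at medians of 15454 to 25224 and 5215 to 7501 UMIs. Thinned to 1000 UMIs, the shares were 31.2% to 44.4% and at most 4.93%.

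The other cells held the rest. Epithelial markers summed to 70.9, 64.5, 34.4 and 190 CPM in DEP 11, DEP 13, PBS 2 and PBS 3, highest in PBS 3, as was Slpi outside lymphoid-marker cells. Cells with epithelial markers (the rule of the lymphoid-marker cells, applied after seeing the data) numbered 8, 8, 6 and 24 and held 2, 0, 2 and 6 Slpi UMIs, and without them Slpi in PBS 3 was 83.6 CPM against 82.8 with them. In Ly6c2-high C1qa-low cells without lymphoid markers Slpi stood at 165 and 263 CPM in DEP 11 and DEP 13, and 239 and 216 in PBS 2 and PBS 3. In Ly6c2-low C1qa-high cells without them it stood at 13.4, 30.2, 21.4 and 58.2 CPM. The classes did not overlap, also without the cell richest in Slpi of each class and mouse (95.2 to 185 against 12.6 to 46.4 CPM). Counting all cells, Slpi was higher in the first class in all 4 mice, as were 15.5% of genes. With all cells the class difference was 2.05 ± 0.17 (log2, SE; adjusted p = 2.38e-09, edgeR quasi-likelihood test), and it was 2.88 once lymphoid-marker cells were left out and 2.78 with the C1qa threshold of 16. Along C1qa, leaving them out mattered most at 20 to 40 UMIs per 10000, where Slpi pooled over mice was 113.5 CPM with them and 25.2 without.

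By exposure Slpi overlapped in CPM over all cells (61.2 and 92.0 with DEP, 65.3 and 102.4 with PBS), with a difference of -0.14 ± 0.29 (adjusted p = 0.997, edgeR quasi-likelihood test). Without lymphoid-marker cells the values were 30.2, 51.1, 39.4 and 82.8 CPM. Within classes Slpi differed by -0.02 ± 0.32 in Ly6c2-high C1qa-low cells and by -0.17 ± 0.35 in Ly6c2-low C1qa-high cells, and was not called. The thinned share of cells with a Slpi UMI was lower in both DEP mice, at 3.86% and 4% against 4.09% and 6.38% (exact two-sided permutation test, p = 0.333, the smallest possible), as it was for 15.3% of 6609 genes. By this share the groups did not overlap for 2 of the 5 members other than Saa3 and Hp (Lyz1 and Slpi), and for 29.4% of those genes, which leave out Lcn2 and Pglyrp1. Without lymphoid-marker cells they did not overlap for 3, with Pglyrp1, and for 30.1% of genes. For Slpi over all cells, the nearest mice of the groups, DEP 13 (4%) and PBS 2 (4.09%), were nearly equal.

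**Figure D5:**
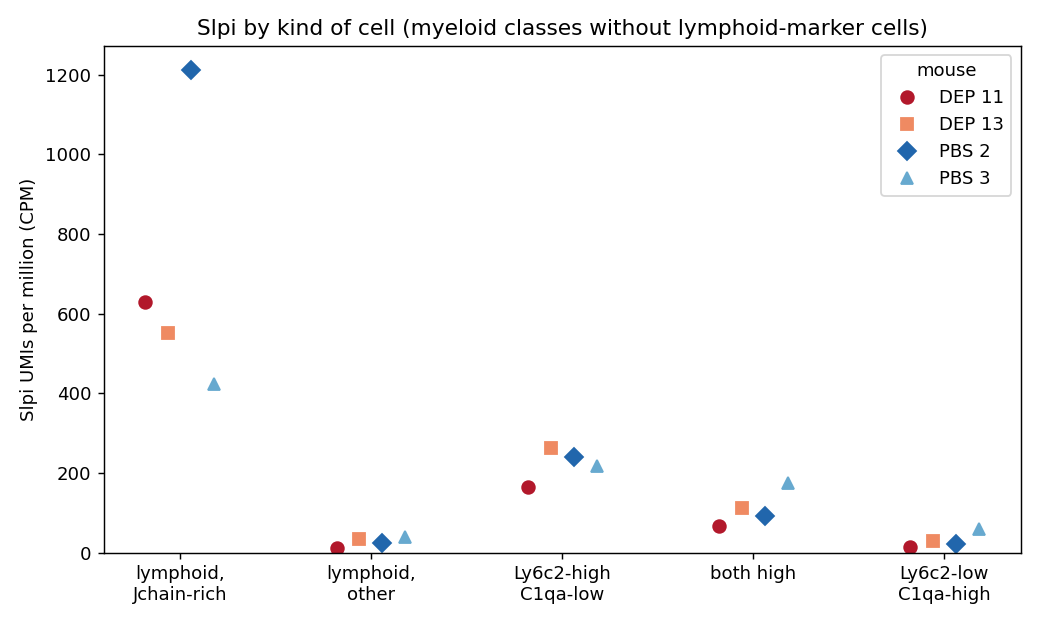
Slpi CPM (y axis, from 0) in lymphoid-marker cells, divided by Jchain, and in 3 myeloid classes without lymphoid-marker cells (x axis), 1 point per mouse. Jchain-rich cells held 424 to 1212 CPM, the highest being PBS 2 with 1 cell of 190 UMIs, and Ly6c2-low C1qa-high cells 13.4 to 58.2 CPM.

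Pglyrp1 was sparse, with 343 UMIs in 205 cells, but its class difference was present in each mouse. Ly6c2-high C1qa-low cells had 23.7 and 35.0 CPM in DEP 11 and DEP 13, and 35.7 and 26.3 in PBS 2 and PBS 3, from 5 to 8 UMIs each. Ly6c2-low C1qa-high cells had 4.44, 7.58, 4.17 and 6.93 CPM, from 24 to 51 UMIs. With the C1qa threshold of 16 the values were 32.2, 27.9, 30.8 and 32.6 CPM (18 to 44 UMIs) against 1.58, 3.37, 3.01 and 4.67 CPM. Tested with no filter on low genes, the class difference of Pglyrp1 was 2.18 ± 0.44 (log2, SE; adjusted p = 3.59e-05, edgeR quasi-likelihood test; 2.46% of 16403 genes called higher). By exposure, Pglyrp1 lay at 9.64 to 11.8 CPM in all 4 mice over all cells (0.05 ± 0.26, adjusted p = 0.996, edgeR quasi-likelihood test with no filter on low genes).

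Lcn2 had 110 UMIs in 53 cells, and 9 cells held 50% of them. Over all cells it stood at 3.41 and 5.51 CPM in DEP 11 and DEP 13, and 4.37 and 1.76 in PBS 2 and PBS 3. In Ly6c2-high C1qa-low cells it had 1, 5, 3 and 0 UMIs, and a difference between the classes was not detectable at this depth (1.31 ± 0.69, adjusted p = 0.376, edgeR quasi-likelihood test with no filter on low genes). The 0 UMIs in the 47 such cells of PBS 3 allow up to 15.8 CPM (3 counts). The share of cells with a Lcn2 UMI was 0.695% to 1.48% per mouse, and lymphoid-marker cells held 3 of the 110 UMIs. The exposures overlapped in Lcn2 CPM over all cells.

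The likeness of other genes to the members was measured as Pearson's r of log2(CPM + 1) over 16 summed samples (4 classes in each of 4 mice) among 4066 other genes, without a test, since classes of a mouse share a library. Msrb1, which reduces oxidised methionine, Chil3, a chitinase-like protein of monocytes, and Fn1, fibronectin, were nearest to Hp (r = 0.97, 0.96 and 0.96). Msrb1, Ifitm3, an interferon-induced membrane protein, and Fn1 were nearest to Lyz2 (0.97, 0.97 and 0.96). Gm7676, H3f3a and Sirpb1a were nearest to Lyz1 (0.94, 0.94 and 0.88). Slpi was nearest to Ly6c2, which with C1qa set the classes, then to Mndal and Prr13 (0.85, 0.84 and 0.83). Lymphoid-marker cells, which held 42.7% of Slpi UMIs, were kept in these sums. They held Ly6c2 at 260 to 458 CPM, against 128 to 213 in the other cells. For Saa3 they were Med29, Yipf4 and Lman1 (0.83, 0.82 and 0.77).

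Related genes differed between the classes in both directions. Of 28 secreted antimicrobial genes, 20 had a UMI, 5 were tested and 3 were called higher in Ly6c2-high C1qa-low cells. Their median log2 difference was 0.52 against -0.03 for all genes tested. Of all genes tested, 8.11% were called higher and 16.2% in either direction, which also holds beside the lists below. Chil3, which is also among the monocyte markers, stood at 974, 604, 613 and 992 CPM in those cells of DEP 11, DEP 13, PBS 2 and PBS 3 against 92.5, 64.4, 130 and 90.2. It differed by 3.06 ± 0.14 (log2, SE; adjusted p = 3.66e-14). Prtn3, proteinase 3, was higher by 1.804 ± 0.366 (adjusted p = 0.000982) and Wfdc17, a relative of Slpi, by 0.52 ± 0.08 (adjusted p = 7.17e-05), while Cst3, cystatin C, differed by 0.11 ± 0.08 (adjusted p = 0.410). The adjusted p-values of related genes are all from edgeR's quasi-likelihood test.

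Of 23 other acute phase genes, 13 had a UMI and 4 were tested, with a median of -1.34. Complement C3 was higher in Ly6c2-high C1qa-low cells (1.40 ± 0.22, adjusted p = 5.66e-05). The metallothioneins, which bind metal ions, and the interleukin 1 receptor antagonist Il1rn were lower: Mt1 fell by 1.58 on the log2 scale (adjusted p = 1.71e-10), Il1rn fell by 1.11 (adjusted p = 0.00826) and Mt2 fell by 1.95 (adjusted p = 0.0476). Mt2 had 0, 1, 4 and 0 UMIs in the Ly6c2-high C1qa-low cells of DEP 11, DEP 13, PBS 2 and PBS 3, and in PBS 2 it stood higher there than in Ly6c2-low C1qa-high cells (28.5 against 16.8 CPM). The acute phase list thus held genes that moved opposite to Hp.

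Of 13 receptors and partners, 6 were tested, with a median of -0.13. Tlr2, a receptor for bacterial lipoproteins, and Scarb1, a scavenger receptor that binds lipoproteins, were higher (0.82 ± 0.17, adjusted p = 0.000979, and 0.89 ± 0.24, adjusted p = 0.0118). Cd14 (0.08 ± 0.10, adjusted p = 0.702) and Hmox1, the haem-degrading enzyme (-0.41 ± 0.15, adjusted p = 0.0759), were not called. Of 19 upstream regulators 16 were tested and 3 were called in each direction, with a median of 0.09. Of all genes, 16.2% were called in either direction and 8.11% higher. Klf4 (0.92 ± 0.14), Il6ra (0.71 ± 0.20) and Cebpb (1.201 ± 0.380) were higher in Ly6c2-high C1qa-low cells, with adjusted p-values of 4.64e-05, 0.0155 and 0.0311. Irf8 (-0.68 ± 0.12), Socs3 (-0.44 ± 0.10) and Il1b (-0.27 ± 0.09) were lower, with adjusted p-values of 0.000136, 0.00306 and 0.0494, and Nfkbia (0.27 ± 0.10, adjusted p = 0.0574) was not called. Of the 15 related genes called between the classes, 9 were called whichever mouse was left out. Il1rn, Scarb1 and Il6ra were called in 2 of these 4 fits, and Mt2, Cebpb and Il1b in 1, with adjusted p-values of up to 0.425, 0.259 and 0.435. With the C1qa threshold of 16, 13 of the 15 were called, Il1rn (-0.19, adjusted p = 0.344) and Il1b (-0.18, adjusted p = 0.124) were not, and Mt2 was at -0.65. Over all alternatives that tested them, Mt2 was called in 4 of 13, Il1b in 5 of 16 and Cebpb in 7 of 15.

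Between exposures none of the related genes in the 4 lists was called in all cells or in either class by edgeR's quasi-likelihood test. The median log2 differences over all cells were -0.20 for the antimicrobial, -0.26 for the acute phase, -0.20 for the receptor and -0.04 for the regulator list, against -0.01 for all genes. Hmox1 stood at 71.0 and 96.3 CPM in the Ly6c2-high C1qa-low cells of DEP 11 and DEP 13, against 171 and 378 in those of PBS 2 and PBS 3, and at 110 and 183 against 231 and 333 in Ly6c2-low C1qa-high cells. Both DEP mice were below both PBS mice in both classes and over all cells, as were 13.7% of genes in the first class, 14.6% in the second and 12.8% over all cells. The differences of -1.75 ± 0.37 and -0.94 ± 0.26 (log2, SE) were not called (adjusted p = 0.0683 and 0.612, edgeR quasi-likelihood test), nor was that over all cells (-0.95 ± 0.29, adjusted p = 0.997).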

How the data were processed

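Single-cell RNA sequencing was performed on colon cells of 4 mice, 2 per group, in 1 table for all libraries. Per the labels, libraries were made with the Single Cell 3' v2 kit of 10x Genomics. The authors counted UMIs with Cell Ranger, and the submitters' processing notes list STAR 2.6.1a, R 3.5.1 and mm10. The deposited values are raw UMI counts per gene and barcode, not normalized. The mouse was read from the barcode's suffix. The barcodes carry running letter codes in place of their sequence. Of 6954 columns, 75 bear a code that another mouse's column also bears (36 codes), and no source says whether a shared code stands for a shared barcode. The cell number stated by the study is lower than the filters used here leave. Symbols of 28416 of 28692 genes came from GENCODE M21.

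Counts were summed per mouse and class over barcodes with at least 1000 UMIs. A gene was tested where 2 or more of the summed samples exceeded 1 CPM and 5% or more of the cells held its UMI. The quasi-likelihood test of edgeR 4.0.16 was used, with TMM library scaling and a Benjamini-Hochberg false discovery rate of 5%. The SE of a log2 difference is its size divided by the square root of the test's F statistic. It is left out for Saa3 and Hp, which carry no test. The class difference and its difference by exposure had the mouse as a block, since both classes came from the same mice. DESeq2 1.42.0 and edgeR's likelihood ratio test were alternatives. Other alternatives were no gene filter, leaving out a mouse, other cell filters, thinning, other class thresholds and leaving out lymphoid-marker cells. Doublets were not called; cells with both marker genes high were kept apart, and the deepest 5% of cells were left out in an alternative. Intervals are exact at 95%. The members and all lists were chosen with earlier results of these data known. Named list genes were those called, up to 4 per direction and list, and the 2 of highest CPM.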

Additional observations from a re-analysis of the deposited data

Results flagged for a closer look

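The difference of Saa3 between Ly6c2-high C1qa-low and Ly6c2-low C1qa-high cells had opposite signs in the 2 exposures: 1.7 CPM in DEP 11 and 324.5 in DEP 13, against -54.4 in PBS 2 and -26.1 in PBS 3. The difference was not tested, since the gene was chosen for it. In DEP 11 the 95% Poisson interval of the first class, from 12 UMIs, was 18.4 to 62.0 CPM and held the 33.9 CPM of the second. With the C1qa threshold of 16, Saa3 was higher in the Ly6c2-high C1qa-low cells of all 4 mice.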

How the results depend on the processing

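The class differences of Lyz1, Lyz2 and Slpi were called under all alternatives that tested them except classes by detection of 1 UMI, where they were 0.16, 0.15 and 0.52 (log2); thinning left Slpi untested. That of Saa3, with no test, was 0.80, 1.05 and 1.55 with no gene filter, without lymphoid cells and with the C1qa threshold of 16, -0.20 with DESeq2 and -3.19 with classes by detection, and ranged from -0.77 to 1.5 leaving out a mouse. The cause was not tested. Genes called in the class difference numbered 1068, and 635 (without DEP 11) to 1055 leaving out a mouse, 325 thinned to 1000 UMIs, 146 with classes by detection, 1919 with doubled thresholds and 2462 with the C1qa threshold of 16. With no replicate block 846 were called, and no member's call changed. No paired analysis was possible because DEP and PBS mice share no replicate number.

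Between exposures over all cells, 0 genes were called, and 4 by DESeq2, 8 by the likelihood ratio test, 119 with no gene filter, 1 without the deepest 5% of cells and 7 to 35 leaving out a mouse. In Ly6c2-high C1qa-low cells 3 were called, and 1, 12, 24 and 11 under those 4 settings, 6 with the study's cell filters, 11 with at least 2000 UMIs, 7 without lymphoid cells, 0 with classes by detection, doubled thresholds or the C1qa threshold of 16, and 0 to 17 leaving out a mouse. In Ly6c2-low C1qa-high cells the counts were 0, then 7, 12, 119 and 1, and 0 to 24 leaving out a mouse. The class by exposure difference gave 12, and 1 by DESeq2, 3 with the study's filters, 5 without the deepest cells, 2 thinned, 0 with classes by detection, 6 with the C1qa threshold of 16 and 5 to 32 leaving out a mouse. The thinned share of cells separated the groups for 2 of 5 members, against 29.4% of 6609 genes, and for 2 to 4 (without PBS 2) leaving out a mouse, against 61.7% to 67.9% of genes.

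Differences by exposure (log2) that were not called changed sign. Leaving out a mouse, those of Lyz2 ranged from -0.0374 to 0.0328 over all cells, from -0.136 to 0.279 in Ly6c2-high C1qa-low cells and from -0.0540 to 0.0105 in Ly6c2-low C1qa-high cells, and those of Slpi from -0.504 to 0.283, from -0.436 to 0.330 and from -0.695 to 0.627. Pglyrp1 ranged from -0.437 to 0.289 in Ly6c2-high C1qa-low cells. The class by exposure difference ranged from -0.129 to 0.350 for Lyz1, from -0.119 to 0.319 for Lyz2 and from -0.514 to 0.567 for Slpi. Lyz2 over all cells was -0.0030 with DESeq2 and -0.0297 with no gene filter, in Ly6c2-high C1qa-low cells -0.0031 thinned, and in Ly6c2-low C1qa-high cells 0.0049 without lymphoid cells and 0.0113 with classes by detection. Pglyrp1 was 0.0188 with at least 2000 UMIs and Slpi 0.0283 with no gene filter in Ly6c2-high C1qa-low cells, and Slpi was 0.41 in Ly6c2-low C1qa-high cells with the C1qa threshold of 16. With doubled thresholds and the C1qa threshold of 16, the class by exposure difference was -0.0392 and -0.0464 for Lyz1 and -0.19 and -0.44 for Slpi. With 2 mice per group and 25 to 76 cells in the smaller class, counts of at most 12 UMIs per mouse limit Lcn2, Pglyrp1 and, outside DEP 13, Saa3 there.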
